A study of Mus musculus with 8 samples.

Results

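The LGI proteins and their ADAM receptors form a small ligand and receptor family, described here in mouse atria by messenger RNA level. The 7 genes were taken by symbol from the deposited count table of 54532 genes, and comprised the 4 ligand genes Lgi1, Lgi2, Lgi3 and Lgi4 and the 3 receptor genes Adam11, Adam22 and Adam23. All 7 symbols stood on a single identifier each, and all 7 genes passed the filter on low counts, which 18033 genes passed. The family was picked out because of how its members differed between the groups compared below, so those differences are given as a description and carry no test. Every library came from atria (right and left, mixed cell types) of Chd4flox/flox mice injected on postnatal day 2. The KO group (4 libraries) received AAV9:Nppa-Cre, in which Nppa, an atrial cardiomyocyte gene, drives the recombinase, and the control group (4 libraries) received AAV9:Nppa-EGFP. All animals thus carried the floxed alleles and an AAV9 vector, only KO had Cre and only control had EGFP, and the effects of these proteins and of Chd4 loss cannot be told apart. The sources used here do not give age at collection, sex or how many animals made up a library, and nothing says that libraries of a group came from separate mice.

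LGI proteins are secreted glycoproteins with leucine-rich repeats and a beta-propeller of EPTP repeats. They bind ADAM11, ADAM22 and ADAM23, membrane proteins built like metalloproteases but without an active catalytic site. In the brain, LGI1 joins ADAM22 and ADAM23 across the synapse, with the scaffold PSD-95 and Kv1 potassium channels, and in peripheral nerve LGI4 from Schwann cells acts through ADAM22 in myelination. In peripheral tissue the family is known chiefly from nerve and its glia.

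Total counts were 34002292 to 38228982 in KO and 39804625 to 40588007 in control. Levels below are CPM (counts per 1000000 counts on the TMM scale, which equalises libraries), as mean ± SD over 4 libraries. The targeted Chd4 was at 169 to 200 CPM in KO libraries and 278 to 308 CPM in controls, and its log2 fold change was -0.66 (SE 0.06, adjusted p = 1.86e-05 by edgeR). Markers of the main cell types were present in every library. Summed CPM of 7 cardiomyocyte markers was 48800 to 59100 in KO and 76100 to 83100 in control, and 7 of 7 were called lower by edgeR. Endothelial markers summed to 1720 to 2040 and 1520 to 1670 CPM (4 of 7 called higher, 1 lower), and fibroblast markers to 6880 to 9080 and 5940 to 6620 CPM (4 of 7 higher). Macrophage markers summed to 290 to 387 and 242 to 296 CPM (4 of 7 higher), and epicardial markers to 587 to 719 and 431 to 573 CPM (4 of 6 higher). Smooth muscle and pericyte markers summed to 329 to 457 and 446 to 710 CPM (2 of 6 higher, 2 lower). Adipocyte markers summed to 0.163 to 49.9 CPM in KO, with the highest value in KO 4, against 0.353 to 2.32 in control. In such bulk libraries, fewer cells of a type, less RNA per cell and changed expression of the marker genes themselves cannot be told apart.

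Of the 7 genes, edgeR placed 3 higher and 1 lower in KO at an adjusted p under 0.05, beside 27.9% of all genes tested (14.8% higher, 13.1% lower). The same 4 genes had groups that did not overlap, as 29.2% of all genes tested did. Since the family was chosen from this contrast, nothing is read from these shares. Lgi3 and Adam11 were much higher in KO, Lgi2 moderately higher and Adam22 lower. Lgi1, Lgi4 and Adam23 had overlapping groups.

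**Figure D1:**
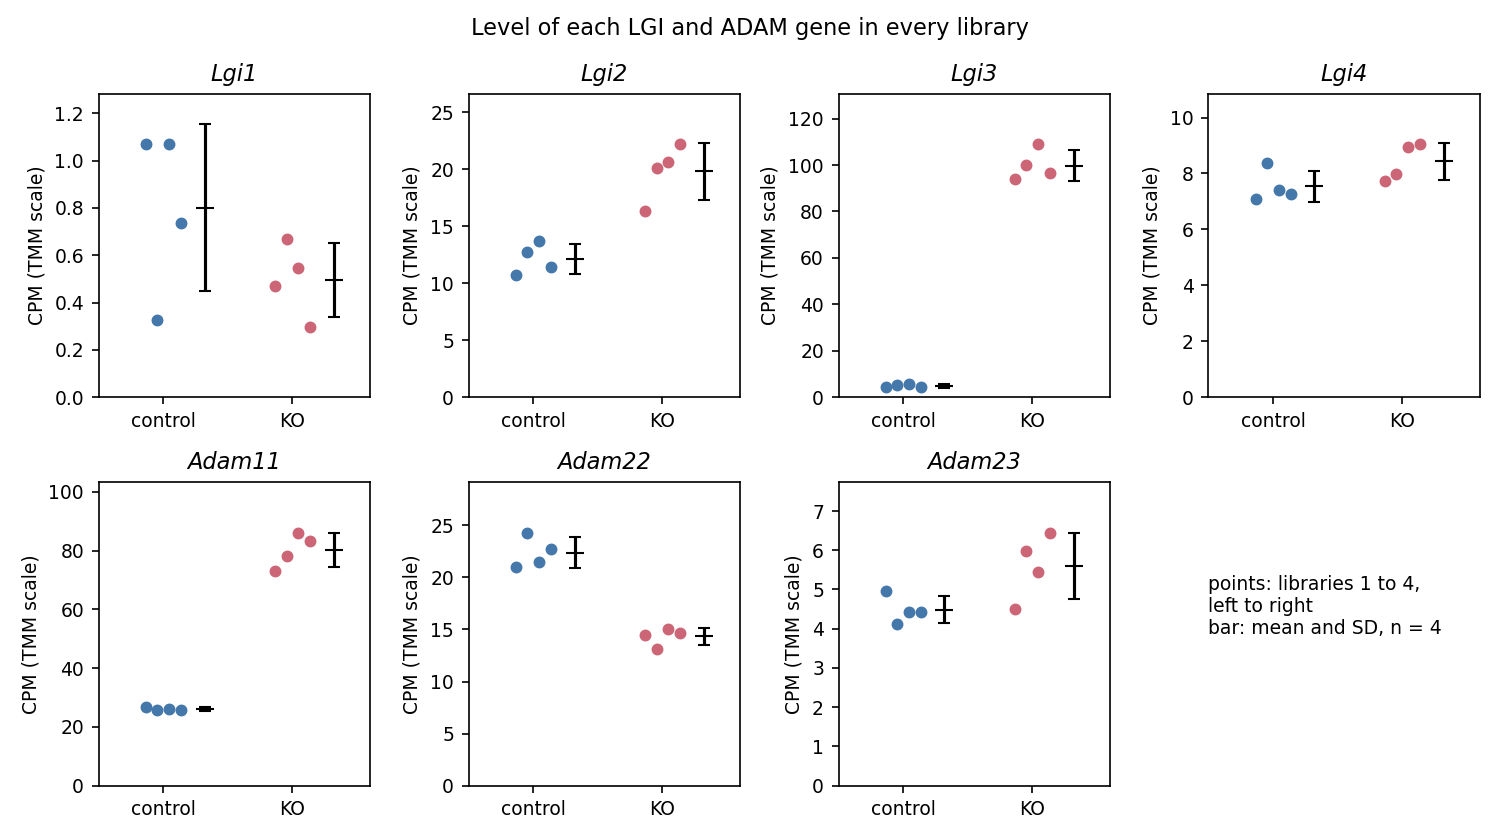
CPM (vertical axis, from 0) of each LGI and ADAM gene in the 4 control and 4 KO libraries, 1 point per library, with mean and SD as a bar. Lgi3 lies at 4.21 to 5.77 CPM in control and 93.8 to 109 CPM in KO, Adam11 at 25.7 to 26.9 and 73.2 to 86.1 CPM, while the points of Lgi1, Lgi4 and Adam23 overlap.

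Among the ligands, Lgi3, linked to Kv1 channels along axons, showed the widest difference. Its gene (ENSMUSG00000033595, chromosome 14, 70530685 to 70538324 on GRCm38, plus strand) had 3179, 4025, 3999 and 3557 counts in KO 1 to 4 and 162, 213, 226 and 167 in control 1 to 4. On the CPM scale KO had 93.8, 99.9, 109 and 96.4, and control 4.21, 5.37, 5.77 and 4.25. Every KO library was far above every control library. The mean was 99.7 ± 6.62 CPM in KO against 4.90 ± 0.789 CPM in control, a 20.3-fold difference with a log2 fold change of 4.35 (SE 0.11). By this value Lgi3 held rank 45 among the 18033 genes, counted from the most increased. Control libraries varied relatively more (SD 16.1% of the mean) than KO libraries (6.64%). Lgi3 shared no exon base with another annotated gene and no 50-base stretch of its transcripts with transcripts of other genes.

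Lgi2, a ligand gene mutated in a juvenile epilepsy of dogs, was higher in KO by a smaller margin. Its gene (ENSMUSG00000039252, chromosome 5, 52533517 to 52566462, minus strand) was at 16.3, 20.1, 20.6 and 22.2 CPM in KO 1 to 4 and at 10.7, 12.7, 13.7 and 11.4 CPM in control 1 to 4. KO 1 was the lowest KO library and still above every control. The means were 19.8 ± 2.5 and 12.1 ± 1.34 CPM, a 1.63-fold difference (log2 fold change 0.71, SE 0.11).

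Lgi4, the Schwann cell ligand, was at 7.73, 7.99, 8.96 and 9.05 CPM in KO 1 to 4. In control 1 to 4 it was at 7.10, 8.37, 7.40 and 7.28 CPM. The groups overlapped through control 2, with means of 8.43 ± 0.672 and 7.54 ± 0.568 CPM (log2 fold change 0.16, SE 0.10). The gene (ENSMUSG00000036560, chromosome 7, 31059342 to 31070935, plus strand) shares 2059 exon bases, 44.9% of its exon length, with Fxyd3, which encodes a regulator of the sodium pump on the opposite strand (42.5% of the exon length of Fxyd3). The strand setting of the counting is not given in the sources used here, so reads of the pair cannot be told apart. Fxyd3, named after its values were seen, had 376, 367, 304 and 259 counts in KO and 310, 289, 292 and 330 in control. Lgi4 had 262, 322, 329 and 334 counts in KO and 273, 332, 290 and 286 in control. The ratio of Fxyd3 to Lgi4 counts ranged from 0.775 in KO 4 to 1.44 in KO 1, and among controls from 0.87 to 1.15.

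Lgi1, the ligand gene mutated in an inherited lateral temporal epilepsy, was barely present. Its gene (ENSMUSG00000067242, chromosome 19, 38264536 to 38312214, plus strand) had 16, 27, 20 and 11 counts in KO 1 to 4 and 41, 13, 42 and 29 in control 1 to 4. That is 0.496 ± 0.155 and 0.801 ± 0.352 CPM, with a log2 fold change of -0.68 (SE 0.39), and control 2 lay inside the KO range. Counts of this size do not settle a difference: the SD was 31.2% of the mean in KO and 43.9% in control. Of its 50-base stretches, 12.9% occur in transcripts of other genes, and 4.69% of its exon length overlaps an antisense gene.

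Among the receptors, Adam11, known from the terminals of cerebellar basket cells, was the most abundant in both groups and higher in KO. Its gene (ENSMUSG00000020926, chromosome 11, 102761439 to 102780262, plus strand) had 2483, 3148, 3162 and 3074 counts in KO and 1034, 1019, 1028 and 1010 in control. Levels were 73.2, 78.1, 86.1 and 83.3 CPM in KO 1 to 4 and 26.9, 25.7, 26.2 and 25.7 CPM in control 1 to 4. No KO library came near the control range, and the controls were tight, with an SD of 2.16% of the mean. The means were 80.2 ± 5.70 and 26.1 ± 0.563 CPM, a 3.07-fold difference (log2 fold change 1.62, SE 0.06).

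Adam22, the postsynaptic receptor of LGI1 that binds PSD-95, was the 1 member placed lower in KO. Its gene (ENSMUSG00000040537, chromosome 5, 8072352 to 8368160, minus strand) was at 14.5, 13.1, 15 and 14.7 CPM in KO 1 to 4 and at 21, 24.3, 21.5 and 22.7 CPM in control 1 to 4. All KO libraries lay under all controls. The means were 14.3 ± 0.853 and 22.4 ± 1.48 CPM, 1.56-fold lower in KO (log2 fold change -0.65, SE 0.08). The cardiomyocyte marker sum given above was lower in the same libraries, and its part in this difference was not tested.

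Adam23, the presynaptic receptor, was the least abundant receptor. Its gene (ENSMUSG00000025964, chromosome 1, 63445891 to 63596276, plus strand) was at 4.51, 5.98, 5.45 and 6.45 CPM in KO 1 to 4 and at 4.97, 4.13, 4.42 and 4.43 CPM in control 1 to 4. KO 1 lay within the control range, while KO 2, KO 3 and KO 4 lay above it. The means were 5.6 ± 0.83 and 4.49 ± 0.348 CPM (log2 fold change 0.32, SE 0.14).

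Reference promoters were matched by symbol in RefSeq (GRCm38.p6) for 4 members, Lgi1, Lgi2, Adam22 and Adam23. Lgi3, Lgi4 and Adam11 had no entry. Bases upstream of the outermost annotated start are shown 5′ to 3′ on the gene's strand for a member higher in KO, the member lower in KO and a receptor with overlapping groups, with CpG dinucleotides, the sites of DNA methylation, in capitals.
Lgi2, chr5:52566463-52566556, minus strand: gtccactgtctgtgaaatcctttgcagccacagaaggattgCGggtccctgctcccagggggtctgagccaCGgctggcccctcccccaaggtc
Adam22, chr5:8368161-8368410, minus strand: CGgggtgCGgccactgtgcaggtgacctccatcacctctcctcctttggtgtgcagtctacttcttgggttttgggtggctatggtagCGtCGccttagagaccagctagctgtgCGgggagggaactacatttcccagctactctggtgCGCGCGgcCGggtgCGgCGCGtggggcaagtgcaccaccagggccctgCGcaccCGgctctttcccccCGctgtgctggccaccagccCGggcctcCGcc
Adam23, chr1:63445641-63445890, plus strand: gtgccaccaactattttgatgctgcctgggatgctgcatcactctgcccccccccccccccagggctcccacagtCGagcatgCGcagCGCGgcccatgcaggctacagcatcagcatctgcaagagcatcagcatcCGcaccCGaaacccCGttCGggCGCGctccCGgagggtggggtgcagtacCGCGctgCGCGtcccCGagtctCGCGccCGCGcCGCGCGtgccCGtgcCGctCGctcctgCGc

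In the full 250 bases before each RefSeq start, the 4 promoters held 10 (Lgi1), 21 (Lgi2), 17 (Adam22) and 27 (Adam23) CpGs, against a median of 6 over 32851 promoters. In that order, the counts stood at percentiles 62.2, 83.7, 76.5 and 91.4 of all these promoters. The windows of Lgi1 and Lgi2 reach past the outermost annotated start into the gene. Before that start lay 5 of the 10 CpGs of Lgi1 and 2 of the 21 of Lgi2. None of 6 short motifs, searched on both strands of the full windows, was found in any of the 4 promoters. Among them were both parts of RE1, the element of the neuronal repressor REST, TTCAGCACC (in 0.301% of all promoters) and GGACAGC (5.28%). The others were the MEF2 sites CTAAAAATA (0.469%) and CTATTTATA (0.387%), the TBX5 site AGGTGTGA (1.12%) and the GATA site AGATAA (9.99%). Absence of these letters from a window says nothing about the factors.

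Levels can be compared between genes only per length, here as CPM per kb of exon. In control atria Adam11 led with 4.61 ± 0.0993 CPM per kb, above every other member. Lgi2 (1.86 ± 0.205), Lgi4 (1.64 ± 0.124), Adam22 (1.56 ± 0.103) and Lgi3 (1.26 ± 0.202) followed, and each overlapped the next in this order. Reads of Lgi4 and Fxyd3 cannot be told apart where their exons overlap, which limits the level and place of Lgi4 in both groups. Adam23 (0.251 ± 0.0194) and Lgi1 (0.0706 ± 0.031) were last, without overlap. Adam23 depended most on the length used, with 0.698 CPM per kb in control and 0.871 in KO when the longest transcript was taken in place of all exons. Adam22 then had 2.42 CPM per kb in control, which put it second, and 1.55 in KO. In KO atria Lgi3 stood first at 25.6 ± 1.7 CPM per kb, ahead of Adam11 at 14.1 ± 1.01. Lgi2 (3.03 ± 0.383), Lgi4 (1.84 ± 0.146), Adam22 (0.997 ± 0.0594), Adam23 (0.313 ± 0.0464) and Lgi1 (0.0437 ± 0.0137) followed, and no neighbours in this order overlapped. Lgi3 thus moved from place 5 of 7 to place 1. Against all genes tested, it lay above 34.1% of them in control and above 91.3% in KO, and Adam11 above 59.2% and 83.2%.

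**Figure D2:**
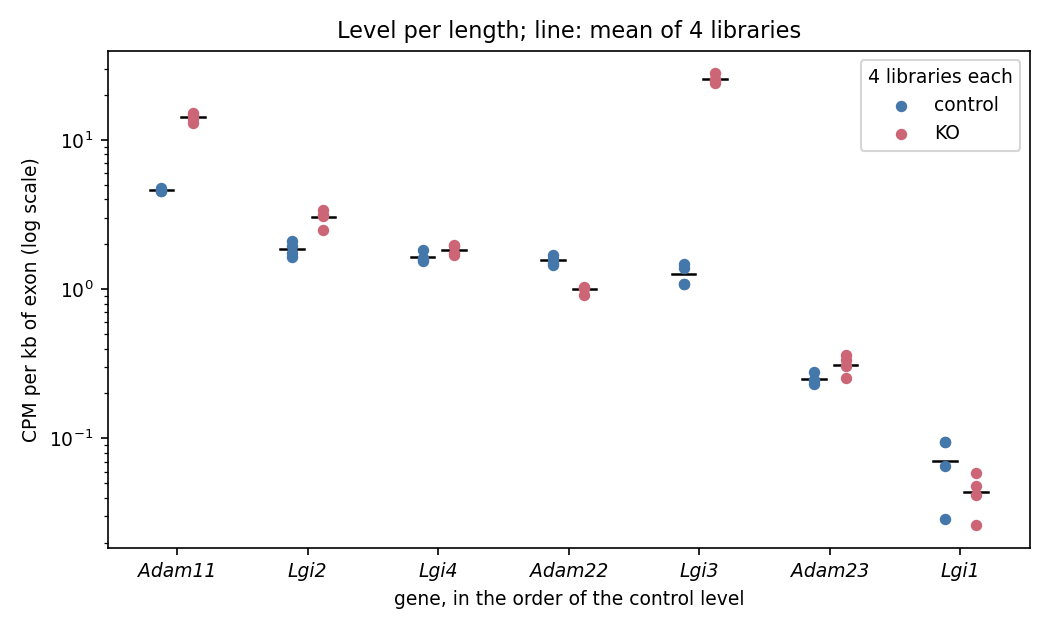
CPM per kb of exon on a log axis, for the 7 genes in the order of their control level, with 4 control and 4 KO libraries each and the mean as a line. Control levels of Lgi2, Lgi4, Adam22 and Lgi3 lie close together, while in KO Lgi3 (25.6) stands above Adam11 (14.1) and all others.

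The make-up of each side of the family therefore differed between the groups. Lgi3 made up 25.9 ± 1.70% of the summed ligand level per length in control (24.3 to 28%) and 83.9 ± 1.29% in KO (82.1 to 85.1%). In control, Lgi2 (38.5 ± 1.05%) and Lgi4 (34.2 ± 2.43%) held larger shares than Lgi3. In KO, Lgi2 and Lgi4 held 9.94 ± 1.04% and 6.03 ± 0.362%. The overlap of Lgi4 with Fxyd3 limits the ligand shares and the summed ligand level as well. Adam11 made up 71.8 ± 1.35% of the summed receptor level in control and 91.5 ± 0.344% in KO, while Adam22 held 24.3 ± 1.61% and 6.46 ± 0.465%. Summed ligand level was 4.83 ± 0.47 CPM per kb in control and 30.5 ± 1.99 in KO, and summed receptor level 6.42 ± 0.0608 and 15.5 ± 1.06. Receptors exceeded ligands in every control library (at least 6.37 against at most 5.29), and ligands exceeded receptors in every KO library (at least 28.3 against at most 16.5).

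**Figure D3:**
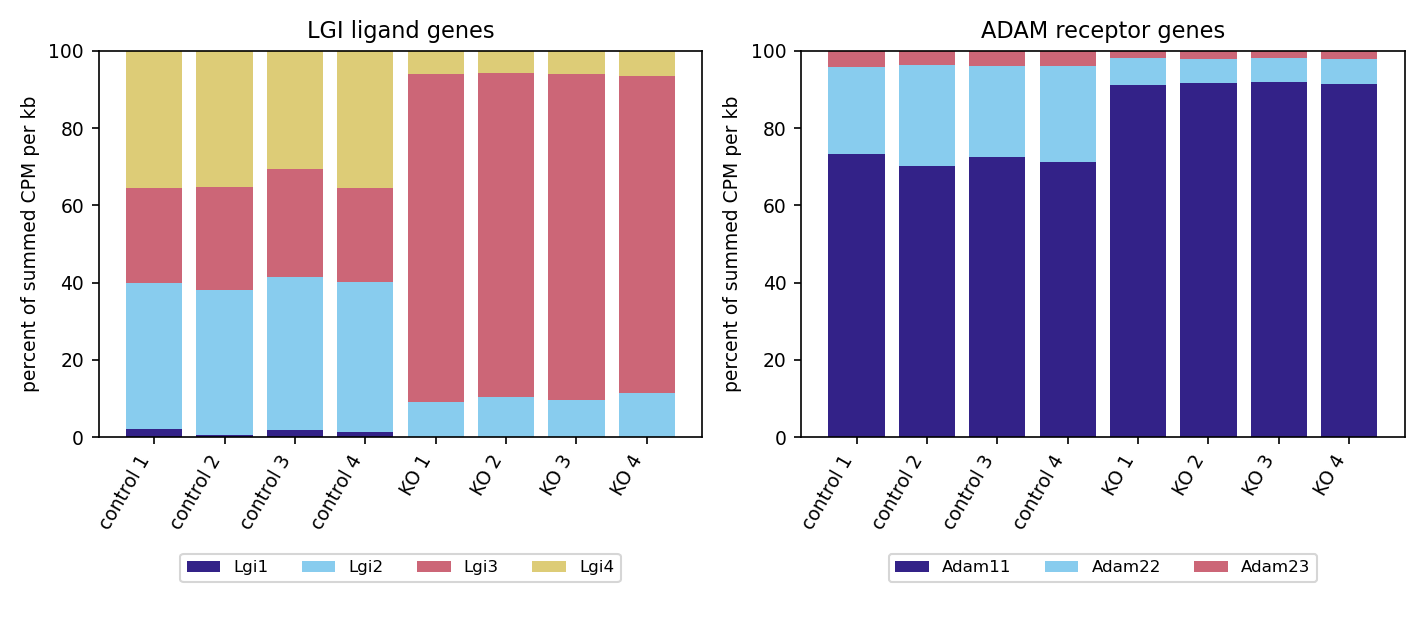
Percent of the summed CPM per kb held by each ligand gene (left) and receptor gene (right) in each of the 8 libraries, as stacked bars to 100%. Lgi3 takes 24.3 to 28% of the ligand bar in control and 82.1 to 85.1% in KO, and Adam11 takes 70.2 to 73.1% and 91.1 to 91.9% of the receptor bar.

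No library name prefix occurs in both groups, so prefix and group cannot be told apart. Within control, the pair 1 and 2 and the pair 3 and 4 have different prefixes, and their means were 4.79 and 5.01 CPM for Lgi3, 26.3 and 26.0 for Adam11, 11.7 and 12.6 for Lgi2 and 22.7 and 22.1 for Adam22. Against either pair alone the log2 fold change was 4.36 and 4.29 for Lgi3, 1.59 and 1.6 for Adam11, 0.74 and 0.63 for Lgi2 and -0.69 and -0.65 for Adam22. KO 1, whose prefix differs from that of KO 2 to 4, was at 93.8 CPM against 102 for Lgi3 and 16.3 against 21 CPM for Lgi2.

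Within groups, likeness was described by the Pearson correlation of log2 CPM deviations from the group mean over 8 libraries, among 13120 other genes. The genes most like Lgi3 were Zfp174 (r = 0.98), a zinc finger gene, and Pqlc3 (0.97), a PQ-loop gene. Those most like Adam11 were Fbxw9 (0.98), an F-box gene, and Twist2 (0.97), a helix-loop-helix factor gene. For Lgi2 they were Zc3hav1 (0.99) and Ldlrad4 (0.98), for Lgi4 Sbds and Adgra2 (0.98 each), for Adam22 Arhgap31 and Zscan22 (0.97 each) and for Adam23 Dact2 (0.98). No member was among the genes named for another. All genes share the same libraries, and values this high are the top of many genes over few libraries.

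Partners of the complex moved in both directions. Of 24 listed partner genes 23 were tested, and 5 were called higher, 3 lower and 15 not (34.8% called, against 27.9% of all genes), with a median log2 fold change of -0.01 against 0.01 over all genes. Dlg4, which encodes PSD-95, the scaffold that holds ADAM22, had KO levels of 37.4, 41.9, 43.9 and 49.0 CPM against control levels of 19.6, 18.3, 19.7 and 21.3 CPM. It was higher in 4 of 4 KO libraries, 2.18-fold (log2 fold change 1.13, SE 0.09, edgeR adjusted p = 2.89e-06), where its ADAM partner was lower. Cntn2, an adhesion protein gene of axons next to the node and a marker of the cardiac conduction system, had KO levels of 115, 199, 196 and 149 CPM, while controls had 11.9, 28, 22.4 and 27.1 CPM. The groups were far apart, with a 7.37-fold rise (log2 fold change 2.88, SE 0.32, edgeR adjusted p = 0.000674). Cntnap2, its partner in nerve, had 0.323 ± 0.185 CPM in KO against 0.596 ± 0.38 in control and was not called (edgeR adjusted p = 0.344).

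Of the Kv1 channel genes, Kcna1, a neuronal channel subunit, fell from 9.63 ± 2.42 to 4.88 ± 0.55 CPM, with all KO libraries (4.42 to 5.58 CPM) under all controls (7.10 to 11.9 CPM) and an edgeR adjusted p of 0.00136. Lgals3bp, a secreted glycoprotein gene, rose 1.51-fold (edgeR adjusted p = 0.000461). A further 3 of the calls, named after their values were seen, each depended on the libraries used. Kcna5, the channel of the atrial ultrarapid current, fell 1.52-fold (edgeR adjusted p = 0.0071, 0.0551 against controls 3 and 4 alone). Epb41l3, a membrane scaffold gene, rose 1.24-fold (edgeR adjusted p = 0.0114, 0.154 against controls 1 and 2 alone). Gria4, a glutamate receptor gene, rose 1.94-fold (edgeR adjusted p = 0.0292), and this call was lost when KO 2, KO 3, KO 4, control 1 or control 3 was left out (0.0608 to 0.0796) and against controls 3 and 4 alone (0.146).

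**Figure D4:**
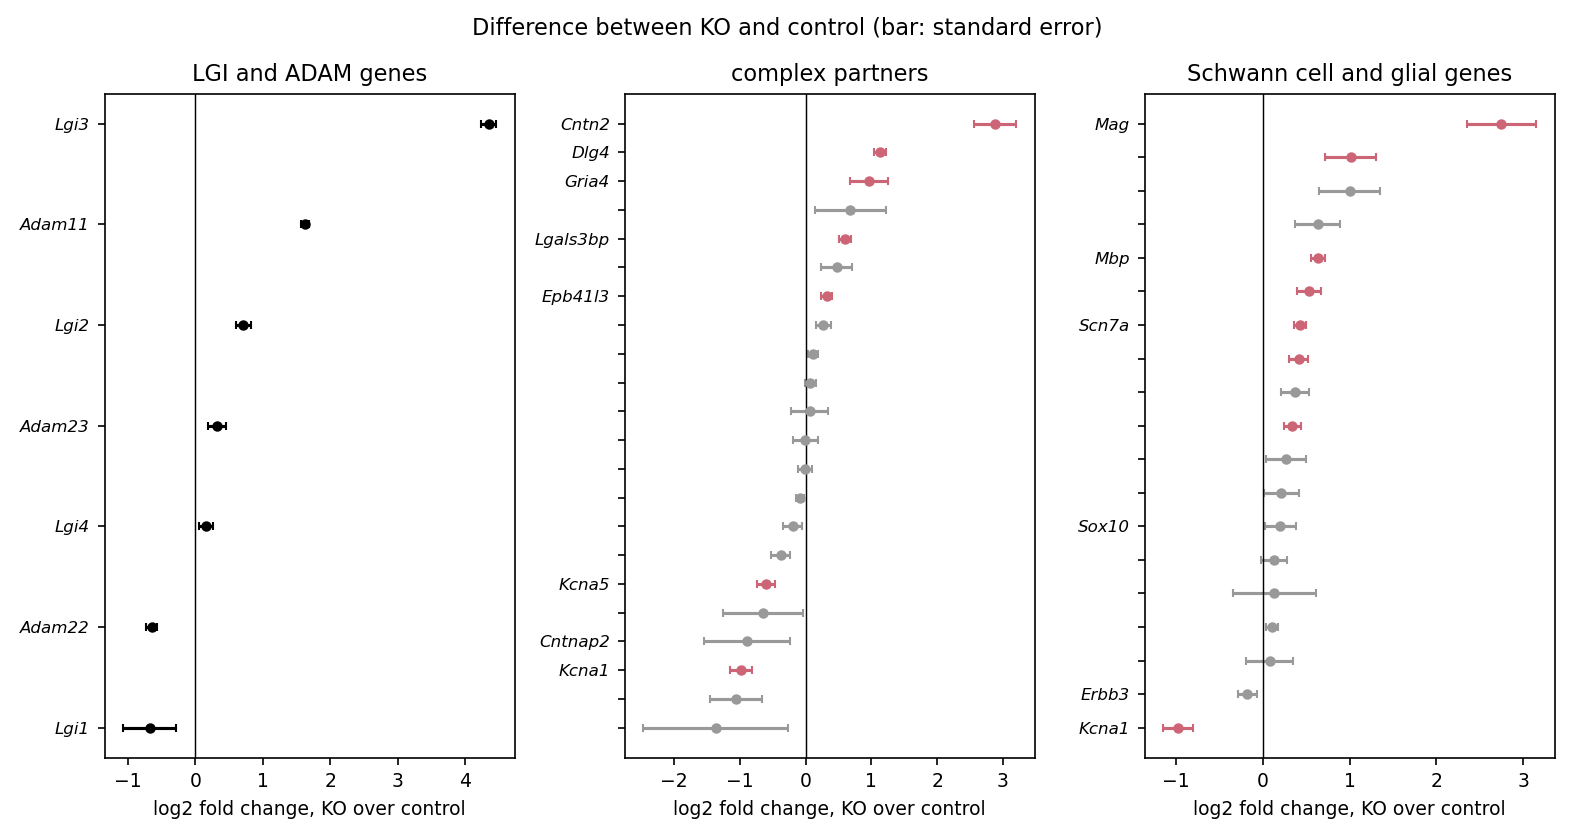
Log2 fold change, KO over control, with its standard error, for the 7 members (black whether or not called), 22 of the 23 tested complex partners and 19 of the 20 tested Schwann cell and glial genes, labelled where the text names them; red points passed edgeR at an adjusted p under 0.05. Among partners Cntn2 (2.88) and Dlg4 (1.13) lie highest, and Kcna1 (-0.98) is the lowest called.

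Nerve and glial genes were described next, since the family is known from these cells. Of 22 listed Schwann cell and glial genes 20 were tested, and 7 were called higher, 1 lower (Kcna1, which the partner list also holds) and 12 not, 40.0% called against 27.9% of all genes. Mbp, a myelin protein gene, rose from 60.4 ± 5.82 to 93.3 ± 6.65 CPM (edgeR adjusted p = 0.000113), and Scn7a, a sodium channel gene, from 68.1 ± 3.69 to 91.5 ± 8.27 CPM (edgeR adjusted p = 0.000916). Mag, a myelin glycoprotein gene, rose from 1.02 ± 0.551 to 6.85 ± 0.623 CPM (edgeR adjusted p = 0.000758). The lineage genes Sox10 and Erbb3, named after their values were seen, were not called, with KO levels of 3.13 ± 0.431 and 16.3 ± 2.68 CPM against control levels of 2.73 ± 0.576 and 18.4 ± 0.273 CPM (edgeR adjusted p = 0.463 and 0.254). Summed over 10 markers of these cells, the level was 138 to 146 CPM in KO against 97.2 to 117 in control. Of the 10, 1 was called higher, Mbp, which held most of the sum in every library. Mbp was at 83.8 to 98.9 CPM in KO and 53.3 to 66.8 CPM in control, and without it the sums of the groups overlapped. The 20.3-fold difference of Lgi3 stood beside these values, and the part of glia in that difference was not tested. The list's count of 8 calls fell to 5 without control 4 and against controls 1 and 2 alone.

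Of 30 listed neuronal genes 21 were tested, and 2 were called higher, 4 lower and 15 not (28.6% called, against 27.9% of all genes). The median log2 fold change of those tested was -0.62 against 0.01 over all genes. Dbh, of noradrenaline synthesis, fell from 14.1 ± 1.77 to 1.2 ± 0.482 CPM (edgeR adjusted p = 1.84e-06) and Ret, a receptor of neurotrophic factors, from 5.52 ± 0.897 to 1.99 ± 0.438 CPM (edgeR adjusted p = 0.000154). Slc5a7, the choline transporter gene, rose from 0.568 ± 0.111 to 2.13 ± 0.306 CPM (edgeR adjusted p = 7.97e-05), and Elavl3, a neuronal RNA-binding protein gene, from 0.769 ± 0.464 to 5.64 ± 0.432 CPM (edgeR adjusted p = 0.00171). The other 2 genes called lower, Elavl4 and Chgb, named after their values were seen, each lost the call in 10 of the alternatives. Summed over 10 neuron markers, the level was 8.26 to 13.3 CPM in KO against 20.4 to 32.9 in control (2 of 6 tested called lower). Defining markers were near 0, since Phox2a had at most 8 counts in a library, Th 11 and Chat 1. The neuron marker sum was lower in every KO library, and Dbh held a large part of it, with 12.1 to 16.1 CPM in control and 0.704 to 1.77 in KO. Without Dbh the sums of the groups overlapped, with control 2 below every KO library. The part of neurons in the members' differences was not tested. The count of calls was 12 (10 lower) without control 2, 4 without control 1 or control 3, and 10 (8 lower) with the replicate block.

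The other ADAM genes include active proteases and sperm proteins. Of 25 listed 11 were tested, 5 of the 25 had no count in any library, and edgeR called 1, Adam19, lower and 10 not (9.09% called, against 27.9% of all genes). With scaling by total counts alone, edgeR called 4 higher and 1 lower. At an unadjusted p under 0.05 edgeR had 2 higher and 1 lower; DESeq2 called 0 higher and 1 lower, limma-voom 2 higher and 1 lower. Adam19, a protease gene of heart development, fell from 134 ± 23.8 to 86.5 ± 15.4 CPM (edgeR adjusted p = 0.01, 0.0538 with no filter on low counts). The catalytic sheddase genes Adam10 and Adam17 had KO levels of 148 ± 18.7 and 65.2 ± 4.54 CPM against control levels of 128 ± 9.34 and 60.1 ± 2.52 CPM (edgeR adjusted p = 0.0956 and 0.184). Adam15, at 55.7 ± 3.54 and 49.4 ± 2.35 CPM (edgeR adjusted p = 0.0573), was called higher without KO 2 (0.0378) or control 2 (0.0371). The list's count was 3 without KO 1, where Adam10 (0.0213) and Adam17 (0.0367) were called, and 2 without KO 2 or control 2. Adam15 shares 20.6% of its exon length with an antisense gene.

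Genes near the members were examined for changes around the same loci. Within 100 kb of a member's start 40 other genes begin, of which 23 were tested. Of these, 6 were called higher and 3 lower (39.1% called, against 27.9% of all genes). The 3 lower calls were all lost with scaling by total counts alone, where 6 were called higher and 0 lower. Groups did not overlap for 5 of the 23, against 29.2% of all genes. Bmp1, Gramd1a, Fxyd1 and Gjc1, described below, were called although their groups overlapped. Around Lgi3, 7 neighbours were tested and 3 called higher, all by far less than Lgi3. These were Nudt18 at 1.46-fold (edgeR adjusted p = 0.00443), Hr, a nuclear corepressor gene, at 1.29-fold (edgeR adjusted p = 0.0122, 0.124 against controls 3 and 4 alone), and Bmp1, a procollagen protease gene, at 1.22-fold (edgeR adjusted p = 0.0449). The call of Bmp1, whose start lies 10451 bases from that of Lgi3, was lost when any library other than KO 1 was left out (0.0583 to 0.117).

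Around Lgi4, whose groups overlapped, 9 neighbours were tested and 3 called higher and 1 lower. Hpn, a serine protease gene, rose from 0.344 ± 0.117 to 1.35 ± 0.285 CPM (log2 fold change 1.96, edgeR adjusted p = 0.000526), and Gramd1a, named after its value was seen, 1.27-fold (edgeR adjusted p = 0.0159, 0.0835 against controls 3 and 4 alone and 0.05 without KO 4). Fxyd1, the cardiac sodium pump regulator gene 2143 bases from the start of Lgi4, fell 1.18-fold (edgeR adjusted p = 0.0318), and the call went when KO 2, KO 3, KO 4, control 1 or control 4 was left out (0.0707 to 0.0836). Around Adam11, 3 neighbours were tested and Gjc1, a connexin gene, fell 1.22-fold (edgeR adjusted p = 0.037). That call went when KO 1, KO 2, KO 4, control 1, control 3 or control 4 was left out (0.0645 to 0.0949). Near Lgi1, Fra10ac1 fell 1.21-fold (edgeR adjusted p = 0.026), a call that went when KO 3, KO 4, control 2, control 3 or control 4 was left out (0.0505 to 0.0718). Of the neighbours of Lgi2 and Adam22, 1 and 2 were tested and edgeR called neither direction; at Adam23 none of 2 was tested. The count of 9 calls was 4 without KO 4, 5 without control 4, 5 against controls 1 and 2 alone and 4 against controls 3 and 4 alone.

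**Figure D5:**
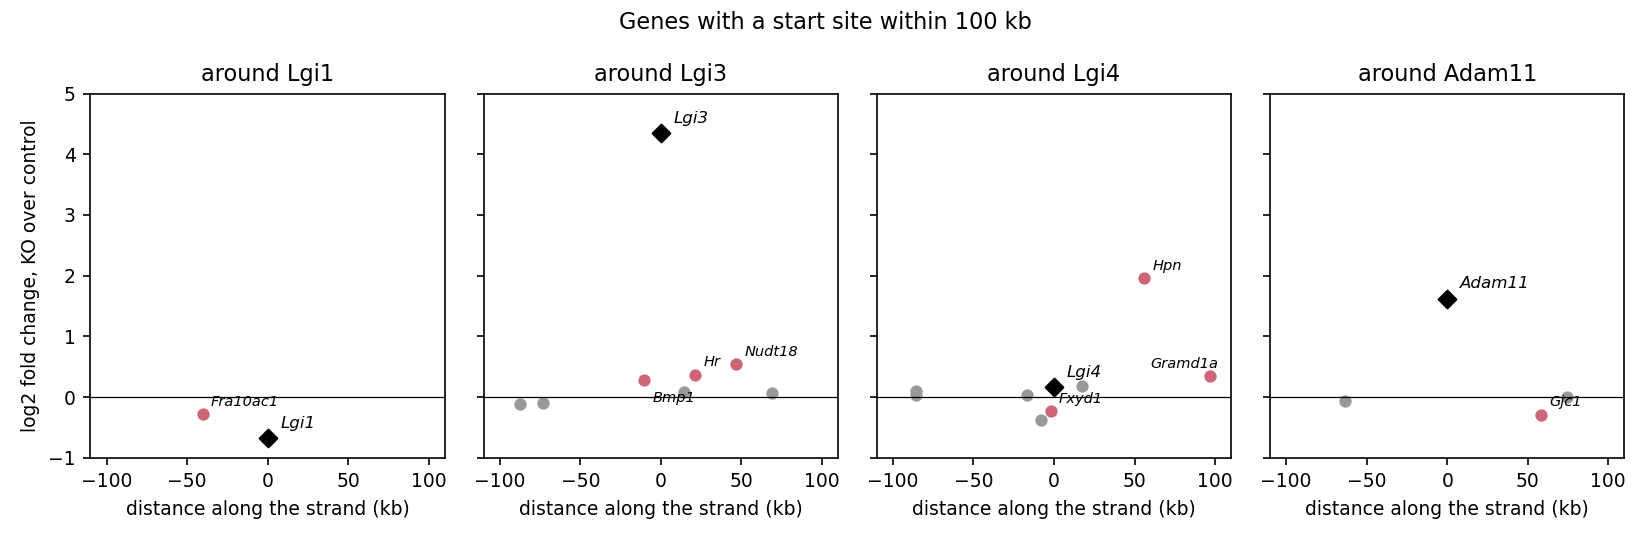
Log2 fold change, KO over control, of most tested genes whose start lies within 100 kb of the start of Lgi1, Lgi3, Lgi4 or Adam11, against the distance in kb along that gene's strand; diamonds are the members, red points passed edgeR at an adjusted p under 0.05. Lgi3 (4.35) and Adam11 (1.62) stand above all their neighbours, while at Lgi4 (0.16) the neighbour Hpn (1.96) stands above it.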

How the data were processed

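The authors deposited raw counts per gene as whole numbers, 1 column per library, and columns were matched to samples by vector and number. The submitters' processing notes name STAR, DESeq2 and mm10. A counting tool, strand setting and annotation are not given in the sources used here.

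Counts were tested with edgeR 4.0.16 (R 4.3.3) by the robust quasi-likelihood test. Genes passed filterByExpr (minimum count 10, total 15), libraries were scaled by TMM, and p-values were adjusted by Benjamini-Hochberg over 18033 genes, with calls under 0.05. Libraries of a group differed beyond sampling noise (chi-square 12.7 to 32.3 per degree of freedom), so none was taken as a copy. P-values measure the spread between these libraries, which may be technical. Coordinates and exon lengths came from GENCODE M21 (GRCm38). Alternatives used other scalings and filters, DESeq2 1.42.0, limma-voom (limma 3.58.1), a replicate block, a Y-linked covariate, control pairs alone and each library left out.

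The members and gene lists were chosen with earlier results of these data known. Named genes were the members, Chd4, up to 4 genes with the smallest p per list, the nearest called neighbour of each member, and the 2 genes most like each member with at least 1 CPM. Others are marked. Some genes entered all fits and counts but are not reported here. Protein sequences were not used here.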

Additional observations from a re-analysis of the deposited data

Results flagged for a closer look

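In 78 groups of 4 libraries (members and named genes), 5 held a library set apart from the other 3 by a gap above Dixon's 95% critical value, and chance flags about 1 in 20 groups. None was a member of the LGI and ADAM family. In control 2, Elavl3 was at 0.0756 CPM against 0.962 to 1.05 in the other controls, and Mag at 0.202 CPM against 1.2 to 1.4. In KO 2, Chgb was at 0.149 CPM against 0.975 to 1.09. Sox10 was at 3.59 CPM in control 4 against 2.40 to 2.55, and Erbb3 at 12.3 CPM in KO 4 against 17.2 to 18.0.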

How the results depend on the processing

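The members were chosen from this contrast, so their values under the 19 alternatives are a description and no support. For Lgi2, Lgi3, Adam11 and Adam22 the log2 fold changes were 0.63 to 0.79, 4.28 to 4.45, 1.58 to 1.70 and -0.69 to -0.57. Only Adam11 with scaling by total counts (1.70) moved by more than the spread between its libraries. The number of members called was 4 to 5 with a library left out: Lgi1 was added without control 2 and Adam23 without KO 1. Lgi1 did not pass the filter of 1 CPM and has no value there. Lgi4 was called in 0 of 19 alternatives, DESeq2 and limma-voom included. Scaling by total counts turned the 2677 higher and 2355 lower genes into 3696 and 1580. Other ADAM genes called were 5 with total counts, 0 by edgeR with no filter on low counts (3 at an unadjusted p under 0.05), 2 with a filter of 1 CPM, 3 by limma-voom and 1 to 3 with a library left out. Neuronal genes called were 4 to 12 and glial genes 5 to 9 with a library left out, and 5 glial genes against controls 1 and 2 alone. Neighbours called were 6 with total counts, 0 of them lower, and 4 to 8 with a library left out. Against controls 1 and 2 alone 5 neighbours were called, and 4 against controls 3 and 4 alone. The causes were not tested. With the replicate number as a block, 10 neuronal genes were called and all other counts stayed within 1.5 times; same-numbered libraries correlated at -0.06 to 0.30, and 2 of 8 correlated best with their own number, so the numbers were not taken as pairs. With the longest transcript as length, Adam22 came second in control (2.42 CPM per kb), Adam23 had 0.698 and 0.871 CPM per kb in control and KO, and the shares were 85.8% and 28.5% for Lgi3 and 86.7% and 62.2% for Adam11 in KO and control. Depth limits Lgi1 alone among the members, at 11 to 42 counts.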
